A study of Mus musculus with 9 samples.

Results

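The transcript response of MH-S cells, an SV40-transformed line of murine alveolar macrophages, to copper oxide nanoparticles (CuO NPs) was described across all genes that were measurably expressed. A gene entered when its level was at least 1 TPM in at least 3 of the 6 libraries of both groups, which kept 12443 of the 56980 gene identifiers in the table, so the members were chosen by level. The rule still let in 135 genes at or above 1 TPM in all controls only and 85 in all CuO NPs libraries only, which passed through the group where they were high and had to differ. The controls were 3 libraries from cells given no agent, and the treated group was 3 libraries from cells given 20 µg/ml CuO NPs, all taken at 24 h. The series holds 9 libraries, and the other 3, from cells given the particles with 10 µM TTM, entered only the estimate of the spread. TPM is a transcript level scaled for length and set to 1 fixed total in every library, so it is a share of the transcripts and not an amount of RNA, and the read depth behind it is unknown. Nothing in the labels says that replicates were separate cultures, so the p-values here cover the spread of these libraries, which may be technical, and 1 cell line stands for no variation between animals.

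Alveolar macrophages live in the airspace of the lung and take up inhaled particles by phagocytosis, which needs surface receptors that bind the particle and an actin network that pulls it in. Copper oxide particles that reach the acidic lysosome dissolve, and the copper ions bind thiols, unfold proteins and drive oxidation. Cells meet such stress with metallothioneins that bind the metal, with antioxidant and glutathione enzymes under NRF2, with chaperones under the heat shock factor HSF1 and with the integrated stress response under ATF4.

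Libraries of 1 group were alike, with Pearson correlations across genes of 0.983 to 0.987 within the control and CuO NPs groups, and genes are not independent replicates. All 12 macrophage-defining markers were measured in every library, among them Ptprc, Csf1r, Adgre1 and Cd68. All 12 were called lower, beside 31.3% of all genes tested. Their summed level went from 2974 to 3055 TPM in controls to 1479 to 1529 TPM with CuO NPs. No marker of epithelium or lymphocytes reached 1 TPM in any library, and Epcam, Sftpc, Nkg7 and Trac were listed at 0 throughout. Summed markers of fibroblasts were 14.1 to 16.1 TPM in controls and 3.54 to 4.12 TPM with CuO NPs, with Lum listed at 0. Postn went from 14.5, 13.9 and 15.8 TPM to 2.94, 2.95 and 2.32 TPM, while Dcn went from 0.02, 0 and 0.10 TPM to 0.93, 0.87 and 1.15 TPM. Endothelial markers summed to 19.4 to 26.0 TPM and 18.1 to 23.9 TPM, and granulocyte markers to 390 to 408 TPM and 206 to 225 TPM. Most of the latter was S100a8, at 331, 347 and 328 TPM and then 197, 198 and 183 TPM, whereas Ly6g rose from 0.50, 0.37 and 0.08 TPM to 2.87, 3.06 and 2.37 TPM. Ly6g entered the tested genes only through the treated group. The part of these marker levels in the results was not tested. In RNA from a whole culture, fewer cells of a type and less RNA per cell cannot be told apart.

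Transcripts moved widely, and more of them fell than rose. Of the 12443 genes, 1519 were called higher with CuO NPs (12.2%) and 3896 lower (31.3%), 43.5% in all, by limma on log2(TPM + 1) with a Benjamini-Hochberg adjusted p below 0.05. Most calls were small: 56.1% of them had a log2 fold change between -0.5 and 0.5. A change of at least 2-fold on the log2(TPM + 1) scale was called for 162 genes higher (1.30%) and 387 lower (3.11%). The 2 groups of 3 libraries did not overlap for 6724 of all genes tested (54.0%). The balance of rises and falls depended on the scale, because the typical (median) gene lay at -0.13 on the log2 scale in TPM. When libraries were scaled by the median of ratios, which centres the typical gene at 0, 2573 genes were called higher (20.7%) and 2575 lower (20.7%). At least 2-fold changes numbered 226 higher and 278 lower with that scaling, and 235 and 271 with quantile normalization. Under median-of-ratios scaling, quantile normalization and TPM rescaled without mitochondrially encoded genes, 1508 of the 1519 calls higher and 2420 of the 3896 calls lower were kept. Of the genes changed at least 2-fold in the main fit, 160 of the 162 and 385 of the 387 were still called, at any size. These were chosen for a large change, so a small shift of the typical gene could undo few of their calls. Of the same genes, 145 of 162 and 374 of 387 were also called in each of the 9 fits that left out 1 library.

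**Figure D1:**
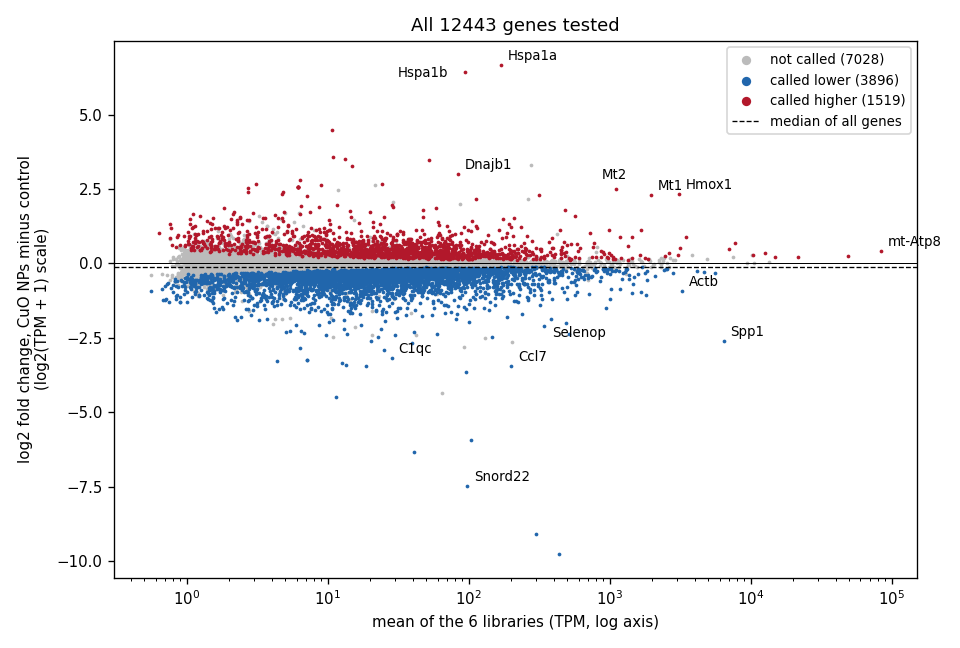
Log2 fold change of each tested gene (CuO NPs minus control, log2(TPM + 1) scale) against its mean over the 6 libraries (TPM, log axis), with 1 point per gene coloured by its limma call. The dashed line marks the median gene at -0.13, and Hspa1a and Hspa1b stand above all other rises.

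The steepest rises were those of inducible chaperones and metal-binding proteins, with several genes that controls hardly expressed. Hspa1a (ENSMUSG00000091971), which encodes a stress-inducible HSP70, stood at 2.82, 2.28 and 1.98 TPM in the controls and at 339, 346 and 329 TPM with CuO NPs. No library of one group came near the other, and the gene rose by 6.66 ± 0.089 on the log2 scale (± SE), with an adjusted p from limma of 7.25e-11. Its neighbour Hspa1b rose from 1.20 ± 0.246 to 186 ± 11.2 TPM (mean ± SD of 3 libraries, the form used for all levels). The genes are near-identical, so reads may be shared between them. Dnajb1, the HSP40 partner of HSP70, rose from 17.8 ± 1.49 to 150 ± 2.63 TPM, and Hsph1, an exchange factor of HSP70, rose from 106 ± 5.07 to 523 ± 28.3 TPM. The metallothioneins Mt2 and Mt1 had log2 fold changes of 2.51 and 2.31, and that of Hmox1, which encodes haem oxygenase 1, was 2.31.

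Other genes among the 15 largest rises belong to other systems. Tex19.1 (ENSMUSG00000039329), a gene of the germ line and placenta that restrains retrotransposons, stood at 0.13, 0.21 and 0 TPM in the controls and at 5.50, 6.98 and 5.77 TPM with CuO NPs. Sstr5 (ENSMUSG00000050824), a somatostatin receptor, stood at 0.22, 0.10 and 0.25 TPM and then at 5.29, 5.31 and 5.17 TPM. Among genes with an established name, 3 were below 0.5 TPM in every control and at least 2 TPM in every treated library, Tex19.1, Sstr5 and the histone gene Hist2h3c1, which therefore entered only through the treated group. Glis3, a zinc finger transcription factor, rose from 0.863 ± 0.216 to 8.55 ± 2.03 TPM. The rest were Rprl3, a noncoding RNA related to RNase P, the pseudogene Rps13-ps2, and the histone genes Hist2h2aa2, Hist2h2aa1 and Hist2h3c2. Rps13-ps2 was listed at 0 in 1 control, and reads from its parent gene may be counted there.

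The steepest falls, apart from small RNAs and genes named as pseudogenes, were secreted products of macrophages. Ccl7 (ENSMUSG00000035373), a chemokine that draws monocytes, stood at 369, 369 and 364 TPM in the controls and at 31.1, 32.8 and 33.5 TPM with CuO NPs. The complement subunit genes C1qb, C1qa and C1qc, whose products bind immune complexes and dying cells, had log2 fold changes of -3.45, -3.41 and -3.17. Spp1 (ENSMUSG00000029304), which encodes osteopontin, stood at 10826, 11055 and 11187 TPM and then at 1779, 1710 and 1892 TPM. It changed by -2.62 ± 0.048 on the log2 scale, at an adjusted p from limma of 6.03e-10. All 3 treated libraries lay far below all 3 controls. Ccl12 fell from 45.0 ± 4.76 to 5.04 ± 0.474 TPM, Ccl9 from 249 ± 18.0 to 43.6 ± 5.11 TPM and Ccl24 from 51.1 ± 2.37 to 8.78 ± 0.730 TPM. Cxcl13, a chemokine for B cells, fell from 69.4 ± 3.87 to 10.2 ± 2.82 TPM. Csf3, the granulocyte growth factor, had a log2 fold change of -2.60, and Igf1, the insulin-like growth factor that macrophages release, one of -2.41.

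The lowest fitted values of all belonged to a small nucleolar RNA, pseudogenes and predicted genes, whose zeros are uncertain. Snord22, the small nucleolar RNA, was at 214, 281 and 92.0 TPM in the controls and listed at 0 in all 3 treated libraries, and Gm48789, a processed pseudogene, went from 867 ± 117 TPM to a listed 0. Both entered only through the controls. Rpl35a-ps4, Rps12-ps3 and Mpc1-ps were at 0 in 1 or 2 treated libraries and not in the others, and the calls of Rps12-ps3 and Mpc1-ps held in 6 and 4 of the 9 fits without 1 library. Rps12-ps3 is typed as protein coding in the annotation. Its call was lost without any of the 3 controls, and that of Mpc1-ps without any of the 3 controls or without CuO NPs 2 or 3. Reads from the parent genes may be counted on such copies, and a listed 0 can be a failed estimate.

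**Figure D2:**
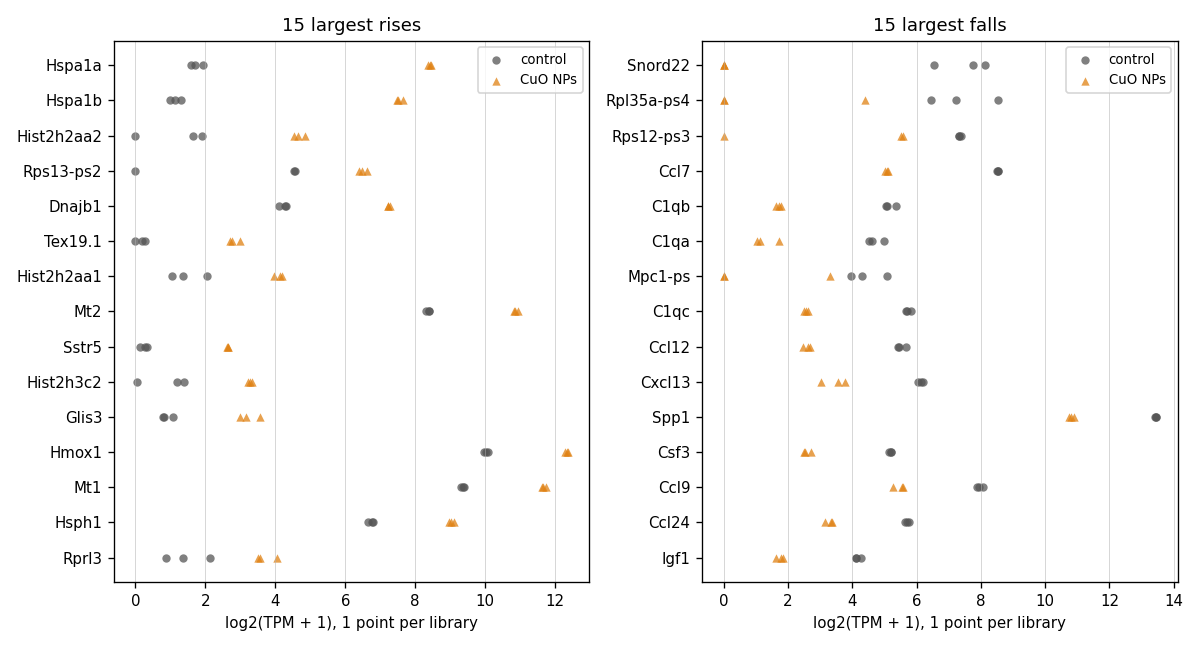
Levels of the 15 named genes with the largest rises (left) and falls (right), as log2(TPM + 1) with 1 point per library, circles for control and triangles for CuO NPs. The groups do not overlap for any of these genes, which were chosen as the largest called changes, nor for 54.0% of all genes tested. Points at 0 mark libraries in which a gene was listed at 0.

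Promoters of genes that moved by at least 2-fold were set beside those of all tested genes for the DNA words that the named stress factors bind. RefSeq gave 1 promoter, 250 bases before to 50 after the start, for 7058 tested genes, of which 69 were called at least 2-fold higher and 184 at least 2-fold lower. The core of the antioxidant response element, TGACNNNGC on either strand, was in 20 of the 69 (29.0%), in 24 of the 184 (13.0%) and in 1049 of the 7058 (14.9%). Besides Tex19.1 and Mt2, its holders included Gclm, Srxn1, Gsta3, Slc30a1 and Abcb1a. The composite element of C/EBP and ATF4, TGATGNAA, was in 6 of the 69 (8.70%), in 4 of the 184 (2.17%) and in 153 of the 7058 (2.17%), the 6 being Trib3, Gadd45g, Chac1, Nupr1, Slc7a11 and Arid5a. Over all 22862 genes with 1 RefSeq promoter, expressed here or not, these shares were 12.3% and 4.18%. The AP-1 word TGANTCA, which can lie inside an antioxidant element, was in 9 of the 69 (13.0%), 17 of the 184 (9.24%) and 321 of the 7058 (4.55%), beside 7.98% of the 22862. GAGGAA, the purine-rich word of PU.1 and other ETS factors, was in 23 of the 69 (33.3%), 78 of the 184 (42.4%) and 1875 of the 7058 (26.6%). TATAAA was in 12 of the 69 (17.4%), 38 of the 184 (20.7%) and 470 of the 7058 (6.66%), but in 14.8% of the 22862. The E-box CACGTG was in 10 of the 69 (14.5%), 7 of the 184 (3.80%) and 752 of the 7058 (10.7%). The metal response core was searched in the loose form TGCNCNC, with any base at each N. It was in 53.6%, 54.3% and 58.8% of the risen, fallen and all promoters. The heat shock element was searched only as GAA, TTC and GAA each set apart by 2 bases. This full form was in 24 of the 7058 and, among the 69, in that of Bst2 alone, a gene named after its value was seen. Partial forms were not counted, and the Hspa1a and Hspa1b stretches printed below hold gaagattc, a part of it, left unmarked. The box CCAAT was in 50.7%, 37.0% and 40.3% of the risen, fallen and all tested promoters, the kappaB element in 60.9%, 65.2% and 68.1%, and the interferon-stimulated response element in 4.35%, 6.52% and 3.32%. These shares are descriptions of sequence, and median GC was 60.0%, 56.0% and 61.0% in the risen, fallen and all promoters.

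The promoters printed here, from RefSeq on GRCm38.p6 and cut at 30 bases after the start, show these words in the genes the results turn on. In the first 5, capitals mark the antioxidant core TGACNNNGC or the loose metal word TGCNCNC, on either strand. Such a mark is a match of letters, and binding was not tested. Hspa1a, Hspa1b and Tex19.1 are the first 3 genes by fold change that hold such a word, and Mt1 and Mt2 were added after the values were seen. The Hspa1a (chr17:34972127-34972406, minus strand) and Hspa1b (chr17:34959209-34959488, minus strand) stretches have the same base at 276 of 280 positions. Those of Tex19.1 (chr11:121145893-121146172), Mt1 (chr8:94178839-94179118) and Mt2 (chr8:94172368-94172647) are on the plus strand, and Tex19.1 and Mt2 share the word TGACTCAGC, at 101 and 79 bases before the start.
Hspa1a: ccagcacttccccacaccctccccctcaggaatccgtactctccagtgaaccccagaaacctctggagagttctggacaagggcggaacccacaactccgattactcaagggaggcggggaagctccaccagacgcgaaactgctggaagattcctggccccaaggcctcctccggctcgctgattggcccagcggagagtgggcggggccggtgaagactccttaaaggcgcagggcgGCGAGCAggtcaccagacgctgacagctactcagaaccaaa
Hspa1b: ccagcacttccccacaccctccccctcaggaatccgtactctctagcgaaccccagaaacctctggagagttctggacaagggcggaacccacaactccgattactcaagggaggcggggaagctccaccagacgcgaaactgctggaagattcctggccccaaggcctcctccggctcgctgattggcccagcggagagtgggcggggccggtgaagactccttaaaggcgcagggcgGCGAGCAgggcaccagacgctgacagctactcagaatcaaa
Tex19.1: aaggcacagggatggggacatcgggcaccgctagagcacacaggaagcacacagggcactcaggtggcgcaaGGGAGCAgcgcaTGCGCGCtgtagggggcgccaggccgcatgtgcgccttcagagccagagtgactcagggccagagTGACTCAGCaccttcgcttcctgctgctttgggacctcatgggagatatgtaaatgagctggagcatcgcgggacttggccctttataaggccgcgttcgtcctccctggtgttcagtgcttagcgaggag
Mt1: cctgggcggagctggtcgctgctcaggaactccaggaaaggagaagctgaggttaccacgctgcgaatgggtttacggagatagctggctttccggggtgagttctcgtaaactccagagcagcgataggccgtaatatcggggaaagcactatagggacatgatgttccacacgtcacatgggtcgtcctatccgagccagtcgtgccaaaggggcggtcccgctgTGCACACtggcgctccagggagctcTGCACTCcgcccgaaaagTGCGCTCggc
Mt2: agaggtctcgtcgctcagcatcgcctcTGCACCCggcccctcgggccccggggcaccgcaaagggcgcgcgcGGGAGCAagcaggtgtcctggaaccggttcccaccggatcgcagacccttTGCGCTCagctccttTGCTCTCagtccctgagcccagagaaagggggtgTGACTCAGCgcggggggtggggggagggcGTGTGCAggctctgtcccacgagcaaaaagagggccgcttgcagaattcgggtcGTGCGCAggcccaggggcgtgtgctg

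In the next 4, also chosen after the values were seen, capitals mark TGATGNAA in Trib3 (chr2:152344031-152344310, minus strand) and Gadd45g (chr13:51846425-51846704, plus strand), and GAGGAA in C1qb (chr4:136886171-136886450, minus strand) and C1qc (chr4:136892885-136893164, minus strand), either word on either strand. Trib3, a pseudokinase that restrains AKT and ATF4, rose from 20.6 ± 0.482 to 74.6 ± 5.19 TPM, and Gadd45g, a growth arrest gene, rose from 23.8 ± 0.421 to 71.4 ± 0.557 TPM. Spi1, which encodes PU.1, fell from 251 ± 12.0 to 131 ± 8.33 TPM.
Trib3: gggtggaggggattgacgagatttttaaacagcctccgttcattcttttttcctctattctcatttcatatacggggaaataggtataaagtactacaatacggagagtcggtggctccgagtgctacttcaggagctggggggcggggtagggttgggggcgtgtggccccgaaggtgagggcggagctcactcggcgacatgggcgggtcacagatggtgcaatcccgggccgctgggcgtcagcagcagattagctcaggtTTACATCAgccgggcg
Gadd45g: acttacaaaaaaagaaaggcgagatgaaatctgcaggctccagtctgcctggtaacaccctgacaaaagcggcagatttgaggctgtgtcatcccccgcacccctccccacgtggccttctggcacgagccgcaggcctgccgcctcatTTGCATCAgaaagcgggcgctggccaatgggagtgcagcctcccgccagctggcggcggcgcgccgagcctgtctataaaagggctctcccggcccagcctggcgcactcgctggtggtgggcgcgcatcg
C1qb: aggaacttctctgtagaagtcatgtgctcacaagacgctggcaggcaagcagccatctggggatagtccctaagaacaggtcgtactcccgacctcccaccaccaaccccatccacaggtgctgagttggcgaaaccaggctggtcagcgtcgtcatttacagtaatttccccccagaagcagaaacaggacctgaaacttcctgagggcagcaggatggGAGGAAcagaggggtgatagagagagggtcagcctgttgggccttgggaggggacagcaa
C1qc: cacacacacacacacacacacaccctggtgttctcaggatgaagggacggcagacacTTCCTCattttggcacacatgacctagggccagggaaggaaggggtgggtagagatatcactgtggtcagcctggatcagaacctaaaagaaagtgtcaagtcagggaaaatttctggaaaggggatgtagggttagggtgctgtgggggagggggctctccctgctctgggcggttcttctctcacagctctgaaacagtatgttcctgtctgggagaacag

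The gains in TPM were held by few genes and the losses by many. Every library sums to the same total, and the gains summed over tested genes with a higher mean came to 11.2% of all TPM. Of these gains, 50% lay in 11 genes, while 50% of the losses were spread over 182 genes. The largest gain was that of mt-Atp8 (ENSMUSG00000064356), a mitochondrially encoded subunit of ATP synthase, which stood at 71637, 68768 and 75514 TPM in the controls and at 97125, 94429 and 93698 TPM with CuO NPs and made 20.6% of the gains. It is short and overlaps mt-Atp6, so the split of reads between them is uncertain. Fth1, the ferritin heavy chain that stores iron, rose from 44569 ± 612 to 53080 ± 699 TPM, and Ftl1, the light chain, from 9394 ± 433 to 11348 ± 129 TPM. Saa3, a serum amyloid protein of macrophages, rose from 5889 ± 187 to 9446 ± 389 TPM, and Prdx1, a peroxidase that reduces peroxides, from 2451 ± 12.9 to 4500 ± 32.4 TPM.

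Spp1 had the largest loss, and the other large losses were of genes of varied roles. Actb (ENSMUSG00000029580), which encodes beta-actin, stood at 4322, 4319 and 4197 TPM and then at 2261, 2240 and 2183 TPM, a change of -0.94 ± 0.038 on the log2 scale (limma, adjusted p = 1.38e-07). The groups were far apart, and Actb and Gapdh are both in common use as reference genes. Gapdh fell from 5148 ± 154 to 4189 ± 231 TPM, but with median-of-ratios scaling its log2 fold change of -0.16 was not called. Vim, the intermediate filament protein vimentin, fell from 1390 ± 40.1 to 490 ± 10.1 TPM, and S100a4, a calcium-binding regulator of motility, from 1394 ± 47.5 to 605 ± 32.2 TPM. Pf4, a chemokine, Gpnmb, a glycoprotein of stressed lysosomes, and Mycl, a MYC family transcription factor, had log2 fold changes of -0.96, -0.99 and -1.05. Eef1a1, a translation elongation factor, had one of -0.33.

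**Figure D3:**
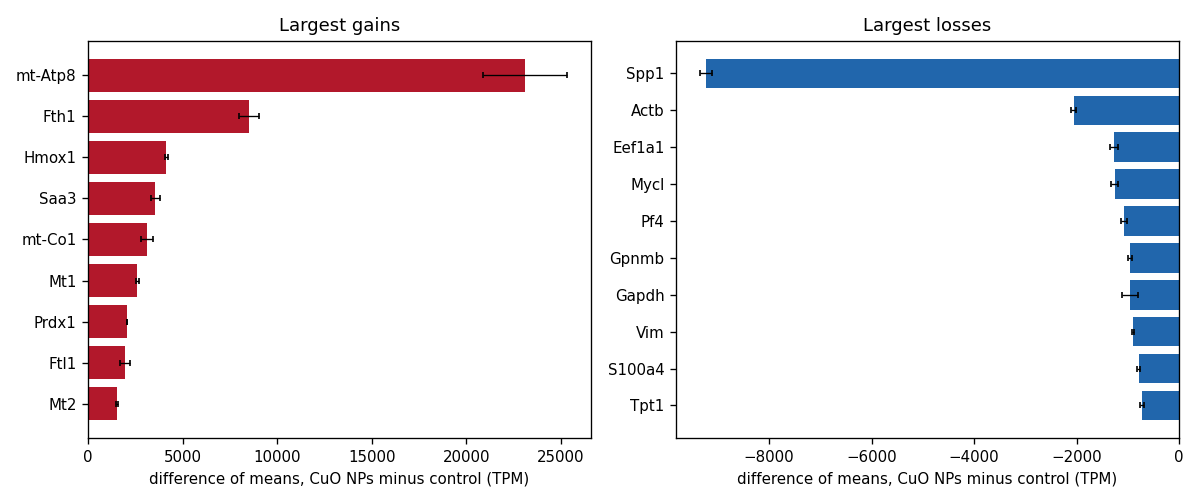
Difference of group means (CuO NPs minus control, TPM) for 9 called genes with the largest gains (left) and the 10 with the largest losses (right), with bars from 0 and whiskers of 1 standard error of the difference. The gain of mt-Atp8 and the loss of Spp1 exceed all others shown.

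Among families defined by gene symbol, those by which macrophages sense, bind and engulf were among the families with the largest shares lower, against a background of 31.3% lower and 12.2% higher. With median-of-ratios scaling the background was 20.7% each way. Of 13 C-type lectins, pattern receptors for sugars, 10 fell and 0 rose, 10 and 1 with median-of-ratios scaling. Their median log2 fold change was -0.95 in TPM. Clec7a (ENSMUSG00000079293), the beta-glucan receptor dectin-1, stood at 21.6, 22.5 and 18.7 TPM in the controls and at 6.08, 4.80 and 3.75 TPM with CuO NPs. Its groups did not overlap, as for 54.0% of all genes tested. Clec4a1 fell from 72.9 ± 1.88 to 20.9 ± 0.954 TPM and Clec5a from 84.3 ± 6.25 to 29.0 ± 4.85 TPM. Of 8 Fc receptors, which bind antibody-coated targets, 7 fell and 0 rose, 5 and 1 with median-of-ratios scaling. Fcgr3 went from 41.9 ± 1.48 to 18.0 ± 1.93 TPM. Of 14 integrins, adhesion and complement receptors, 10 fell and 0 rose, 7 and 0 with median-of-ratios scaling, and Itgam, a subunit of complement receptor 3, fell from 21.1 ± 1.53 to 7.70 ± 0.968 TPM. Itga4, a subunit of the receptor for VCAM-1, fell from 22.5 ± 2.20 to 6.31 ± 0.357 TPM.

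Receptors for soluble signals followed the same course. Over all genes 31.3% were lower and 12.2% higher in TPM, and 20.7% each way with median-of-ratios scaling. Of 12 receptors for chemokines and complement peptides, 8 fell and 0 rose, 6 and 0 with median-of-ratios scaling. The falls were led by C5ar1 and C3ar1, the receptors for C5a and C3a. These went from 128 ± 5.72 to 34.4 ± 1.96 TPM and from 103 ± 5.24 to 31.7 ± 2.39 TPM. Of 30 other G protein-coupled receptors, 23 fell and 0 rose, 18 and 0 with median-of-ratios scaling. Among them were S1pr1, a sphingosine-1-phosphate receptor, with a log2 fold change of -1.48, and the proton sensor Gpr65, with -1.39. Of 29 cytokine receptors, 19 fell and 2 rose, 18 and 3 with median-of-ratios scaling, with Il17ra and Il10ra at -1.29 and -1.16 in TPM. Of 22 paired immune receptors, 14 fell and 2 rose, 9 and 2 with median-of-ratios scaling. Cd300lf, an inhibitory lipid receptor, fell from 113 ± 1.76 to 36.1 ± 2.17 TPM, whereas Treml4, a receptor that binds dead cells, rose from 4.14 ± 0.225 to 19.2 ± 0.956 TPM. All 5 tested MS4A membrane proteins fell, with Ms4a6c going from 28.6 ± 2.38 to 6.01 ± 0.307 TPM, a family listed only after its members' values were seen. For these receptor families the median kept its sign under all 3 other scalings.

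**Figure D4:**
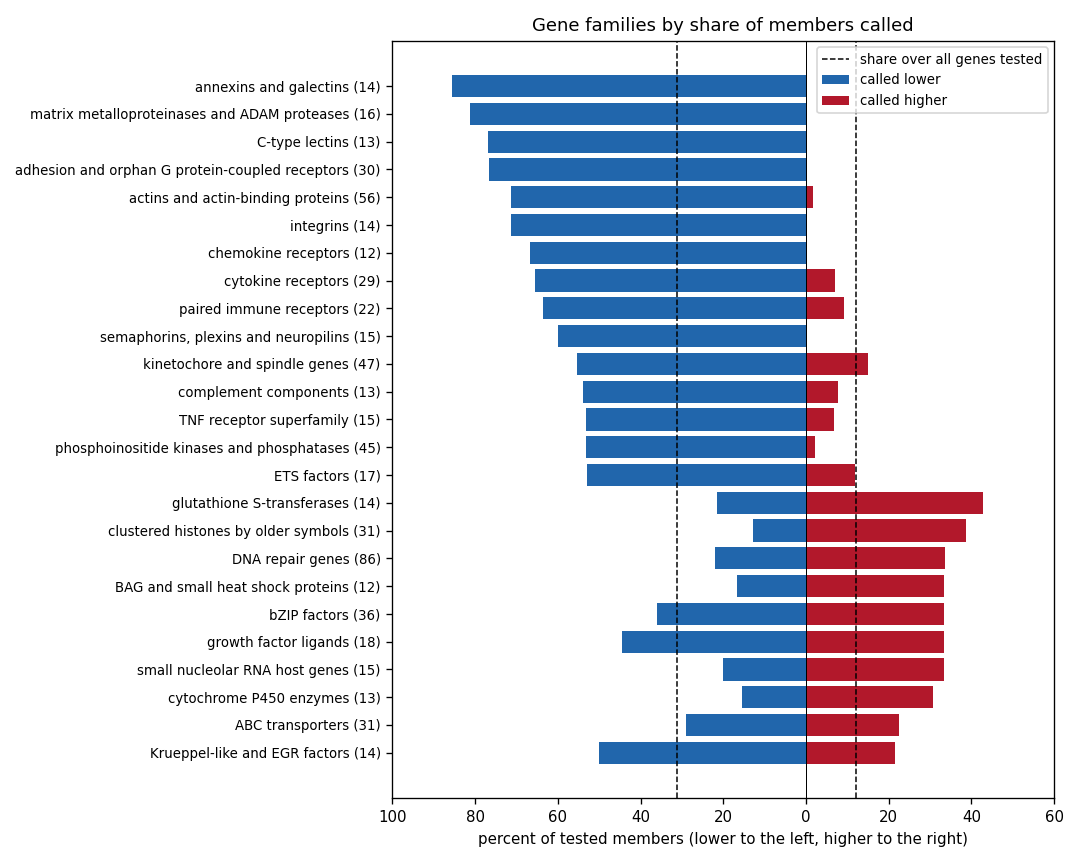
Percent of the tested members of each family called lower (left) and higher (right), for the 15 families with the largest share lower and the 10 others with the largest share higher among families reported here with at least 10 tested genes (number in brackets). Dashed lines mark 31.3% and 12.2%, the shares over all genes tested.

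Most measured proteases of the matrix, annexins and galectins fell as well, while collagens and matrix proteins were mixed. Of 17 of these, 6 fell (35.3%) and 3 rose (17.6%), beside 31.3% and 12.2% of all genes. At least 2-fold, 4 fell and 1 rose, and the median log2 fold change was 0.00. Of 16 matrix metalloproteinases and ADAM proteases, 13 fell and 0 rose, 11 and 0 with median-of-ratios scaling. Mmp8, a neutrophil-type collagenase, fell from 600 ± 9.66 to 162 ± 1.34 TPM and Mmp13, collagenase 3, from 12.0 ± 0.179 to 1.59 ± 0.216 TPM. Of 14 annexins and galectins, which bind membrane lipids or sugars, 12 fell and 0 rose, 9 and 1 with median-of-ratios scaling. Anxa3, Anxa2 and Anxa1 had log2 fold changes of -1.39, -1.27 and -1.15 in TPM. Selenop (ENSMUSG00000064373), the secreted selenium carrier, stood at 554, 542 and 560 TPM in the controls and at 128, 128 and 129 TPM with CuO NPs. That gap far exceeded the spread within groups (-2.09 ± 0.034 on the log2 scale, limma, adjusted p = 2.35e-10), while of all 19 selenoprotein genes 8 fell and 3 rose (6 and 5 once scaled by the median of ratios). Of 18 growth factor ligands, 8 fell and 6 rose, so both directions were present. Pdgfb fell from 22.6 ± 0.536 to 7.83 ± 0.225 TPM, whereas Vegfa, Osm and Gdf15 rose with log2 fold changes of 0.76, 0.92 and 0.96, these 4 being named after their values were seen.

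Most measured genes of the actin network fell. Of 56 tested actins and actin-binding proteins, 40 fell (71.4%) and 1 rose (1.79%), beside 31.3% and 12.2% of all genes. Their median log2 fold change was -0.40. With median-of-ratios scaling 32 fell and 3 rose. Lcp1 (ENSMUSG00000021998), the leukocyte actin bundler L-plastin, stood at 373, 366 and 364 TPM in the controls and at 149, 164 and 155 TPM with CuO NPs. Actg1, gamma-actin, fell from 960 ± 31.3 to 468 ± 14.5 TPM, and Fmnl1, a formin that lengthens filaments in phagocytes, from 92.2 ± 4.04 to 42.8 ± 4.89 TPM. Of 14 myosins 6 fell and 0 rose, 3 and 0 with median-of-ratios scaling, with Myo1e at -1.04. Of 50 kinesins and dyneins 23 fell and 4 rose, and Kif3c, a kinesin motor, rose from 5.03 ± 0.693 to 15.4 ± 0.997 TPM.

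Transcription factors moved in both directions. Of 36 bZIP factors, 12 rose (33.3%) and 13 fell (36.1%), beside 12.2% and 31.3% of all genes. The small MAF proteins and the large MAF gene parted. Maf (ENSMUSG00000055435), a regulator of macrophage identity, stood at 10.5, 9.86 and 10.3 TPM in the controls and at 1.72, 1.58 and 1.63 TPM with CuO NPs. The small MAF partners of NRF2, Maff and Mafk, rose from 11.7 ± 0.163 to 22.8 ± 0.412 TPM and from 21.9 ± 2.02 to 38.8 ± 2.17 TPM. Cebpb, a C/EBP factor, was at 78.4, 98.9 and 145 TPM in the controls and at 364, 326 and 152 TPM with CuO NPs. CuO NPs 3 lay close to control 3, and the call (limma adjusted p = 0.0377, from 0.0102 to 0.123 over the alternatives) was lost without control 1 or 2 or CuO NPs 1 or 2. Fos, an immediate early factor, fell from 48.8 ± 13.4 to 12.6 ± 2.16 TPM. Of 17 ETS factors 9 fell and 2 rose, and Etv4 and Spi1 had log2 fold changes of -1.14 and -0.94. Of 37 basic helix-loop-helix factors 18 fell and 2 rose. Epas1, which encodes HIF-2 alpha, and the inhibitors Id1 and Id2 had log2 fold changes of -1.40, -1.30 and -1.17. Irf5 and Irf8, interferon regulatory factors of macrophages, had -1.09 and -0.95. Most zinc finger genes with ZFP names did not pass the test: of 334, 30 rose and 51 fell, and their median of -0.05 turned positive (0.06) with median-of-ratios scaling. Zfp420 rose from 1.98 ± 0.415 to 7.51 ± 0.689 TPM and Zfp395 fell from 10.8 ± 1.05 to 3.48 ± 0.147 TPM.

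Genes of mitosis and genes of DNA repair parted. Of 47 kinetochore and spindle genes, 26 fell and 7 rose, and of 52 cyclins and cyclin-dependent kinases with their inhibitors, 25 fell and 6 rose. These families had 19 and 20 falls and 11 and 9 rises with median-of-ratios scaling. Cenpa, the centromeric histone, fell from 143 ± 7.19 to 48.7 ± 5.50 TPM, and Ccnb1, the mitotic cyclin B1, from 143 ± 5.41 to 60.5 ± 1.87 TPM. Ccnd1 (ENSMUSG00000070348), the cyclin of the G1 phase, stood at 22.4, 21.5 and 21.8 TPM and then at 3.73, 4.04 and 4.19 TPM. Of 86 DNA repair genes, 29 rose and 19 fell, with a median log2 fold change of 0.10, against 12.2% and 31.3% over all genes, and with median-of-ratios scaling 37 rose and 9 fell. By the naming rule the members with the largest changes were Msh5 and Parp14, which fell with -1.07 and -0.90, and Rad51b, which rose with 0.88. Brca1 (ENSMUSG00000017146), of homologous recombination and named after its value was seen, stood at 20.0, 17.3 and 17.0 TPM in the controls and at 30.4, 38.4 and 32.6 TPM with CuO NPs. The 2 groups did not overlap, as for 54.0% of all genes tested. The Fanconi genes Fancd2 and Fanci, the mismatch gene Msh6, the ligase Lig1 and the polymerase subunits Pole and Pold1 also rose and were likewise named after their values were seen, with log2 fold changes from 0.51 for Pold1 to 0.71 for Pole.

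Histone genes of the replication type, which carry older symbols in the annotation, were grouped after their values were seen. Of 31 tested, 12 rose (38.7%) and 4 fell (12.9%), beside 12.2% and 31.3% of all genes. Hist2h2aa2 (ENSMUSG00000063954), which encodes an H2A, was at 0, 2.71 and 2.12 TPM in the controls and at 24.3, 27.5 and 22.3 TPM with CuO NPs, and Hist2h3c2, an H3 gene, rose from 0.987 ± 0.837 to 8.70 ± 0.348 TPM. Hist2h2aa1 is a near-identical copy of Hist2h2aa2, so the split between them is uncertain. Those that fell included Hist1h1c, a linker histone, from 11.8 ± 1.06 to 5.46 ± 0.465 TPM. Most replication-dependent histone mRNAs lack a poly(A) tail, and poly(A) selection, by which these libraries were made, captures them in small part. The separately named histones with poly(A) tails went the other way: H1f0 fell from 318 ± 7.78 to 130 ± 1.76 TPM and H3f3b from 723 ± 5.64 to 431 ± 2.04 TPM.

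Protein turnover, detoxification and transport showed strong rises of some genes in families where others fell. Over all genes 12.2% were higher and 31.3% lower in TPM, and 20.7% each way with median-of-ratios scaling. Mid1 (ENSMUSG00000035299), a TRIM ubiquitin ligase on microtubules, stood at 26.2, 22.8 and 25.4 TPM in the controls and at 97.7, 89.3 and 91.0 TPM with CuO NPs, while of 36 TRIM genes 15 fell and 3 rose, 4 and 5 with median-of-ratios scaling. Of 75 RING finger genes 12 rose and 19 fell, and with median-of-ratios scaling 21 rose and 14 fell and the median turned from -0.06 to 0.06. Among them were rises of Rnf183, Mdm2, the ligase of p53, and Siah2 at log2 fold changes of 1.27, 1.01 and 0.93. Ubb, a polyubiquitin gene, rose from 1006 ± 74.6 to 1846 ± 57.9 TPM, whereas Ube2c, the ubiquitin-conjugating enzyme of mitotic exit, fell from 439 ± 16.4 to 210 ± 2.70 TPM. Kctd12, an adaptor of the F-box and Kelch group, fell from 39.5 ± 2.60 to 7.80 ± 0.670 TPM. Of 14 glutathione S-transferases 6 rose (42.9%) and 3 fell (21.4%), and 3 of the rises were at least 2-fold. Gsta1, counted in both, went from 0.483 ± 0.172 to 3.74 ± 0.610 TPM. It was below 1 TPM in every control, so it entered only through the treated group and had to differ. The microsomal Mgst2 rose from 65.0 ± 2.42 to 159 ± 19.8 TPM. Of 31 ABC transporters 7 rose and 9 fell, and with median-of-ratios scaling 7 rose and 5 fell and the median turned from -0.10 to 0.03. Abcb1a, the drug exporter P-glycoprotein, rose from 2.25 ± 0.346 to 6.58 ± 0.00577 TPM. Of 148 plasma membrane and organelle solute carriers 19 rose and 57 fell, 32 and 42 with median-of-ratios scaling. The zinc exporter Slc30a1 rose and the zinc importer Slc39a10 fell, at log2 fold changes of 1.73 and -1.72.

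The counts of several housekeeping families moved with the scale. Those of all genes did too, from 12.2% higher and 31.3% lower in TPM to 20.7% each way with median-of-ratios scaling. Of 52 translation initiation factors 7 rose and 22 fell in TPM, and 16 rose and 10 fell with median-of-ratios scaling. Eif4g2 fell under both, from 410 ± 15.5 to 230 ± 4.27 TPM. Of 38 nucleotide synthesis enzymes 8 rose and 7 fell in TPM, and 18 rose and 4 fell with median-of-ratios scaling, the median being above 0 on both scales. Of 47 Rab GTPases 4 rose (8.51%) and 19 fell (40.4%), and of 57 deubiquitinases 6 rose (10.5%) and 16 fell (28.1%). Of 54 histone demethylases and methyltransferases 6 rose (11.1%) and 15 fell (27.8%). The shares of the latter 2 families lay near those of all genes. With median-of-ratios scaling these 3 families had 9, 12 and 12 rises and 13, 11 and 9 falls, in that order. Many well expressed genes held their level: 425 of 2608 genes with a mean of at least 50 TPM had a 95% interval of the log2 fold change within -0.2 to 0.2. The most abundant of them were mt-Nd2, at 9442 ± 467 and 9450 ± 253 TPM, and Rpl8, at 2558 ± 123 and 2559 ± 37.1 TPM. The thymosin gene Ptma and the lysosomal protease gene Ctsz, at log2 fold changes of 0.04 and -0.05, were among the 10 most abundant. With median-of-ratios scaling Ptma was called higher at 0.18, so the narrow interval holds for shares of TPM.

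Calls also differed with the length and type of the gene, for the 12146 tested genes with an annotated transcript. In the shortest of 5 equal groups, up to 1617 bases, 16.0% were called higher and 21.1% lower, and in the longest, from 4972 bases, 7.77% and 35.7%. With median-of-ratios scaling the medians of these groups were 0.10 and -0.06. Of 274 long intergenic noncoding RNAs 16.4% were called higher and 19.7% lower. Over all genes tested these shares were 12.2% and 31.3%. Calls differed with level too. In the lowest of 5 equal groups by mean TPM 8.68% were called higher and 17.6% lower, and in the highest 18.4% and 38.6%. The part of level in the shares by length and type was not tested. RNA quality and read coverage are not in a table of gene values, and their part in this was not tested.

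Genes that fell by at least 2-fold were in places next to each other. In the gene order of GENCODE M21 (GRCm38), 9 runs of at least 3 consecutive tested genes moved at least 2-fold the same way. On chromosome 11, Ccl2, Ccl7 and Ccl12 fell, with Ccl2, the main monocyte chemokine, going from 856 ± 43.5 to 166 ± 14.8 TPM. On chromosome 19 a run of 6 genes fell, Ms4a7, Ms4a4a, Ms4a6c, BE692007, Ms4a6b and Ms4a6d. On chromosome 4 the run was C1qb, C1qc and C1qa, and on chromosome 6 it was Clec4a1, Clec4a3 and Clec4a2. The 1 run that rose, on chromosome 3, held Hist2h2aa2, Hist2h2aa1 and Hist2h3c1 with a predicted gene. Runs of paralogs can share reads, which was not tested.

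Genes of chromosome 14 were lower as a group, a pattern noticed after the values were seen. Of its 384 tested genes 193 were called lower (50.3%) and 17 higher (4.43%), while on the other 19 chromosomes with a count the share lower was 25.5% to 37.6% and the share higher 8.65% to 15.8%. Each library was given the median over a chromosome's genes of log2(TPM + 1) minus the mean of the 6 libraries, less the same median over all genes. On chromosome 14 the controls had 0.08, 0.06 and 0.10 and the CuO NPs libraries had -0.08, -0.09 and -0.08, with no overlap. The difference of the group means was -0.16, and on the other chromosomes it lay between -0.05 and 0.05. An exact two-sided permutation test of 3 against 3 libraries cannot give a p below 0.1, so none is given. The fall was spread along the chromosome: all 12 successive blocks of 32 tested genes had a median below that of all genes, from -0.26 to -0.09. On other chromosomes 184 of 356 blocks did, and 43 (12.1%) lay at or below the highest block of chromosome 14. The lowest block of all, at -0.43, was on chromosome 6. The fall on chromosome 14 was made of small changes, since 3.91% of its genes fell by at least 2-fold, beside 3.11% of all genes. Kctd12 and the gene of the tumour protein Tpt1, which fell from 2209 ± 63.6 to 1488 ± 27.8 TPM, lie there. The table holds no measure of chromosome copy number in these cultures, and its part in the chromosome 14 values was not tested.

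**Figure D5:**
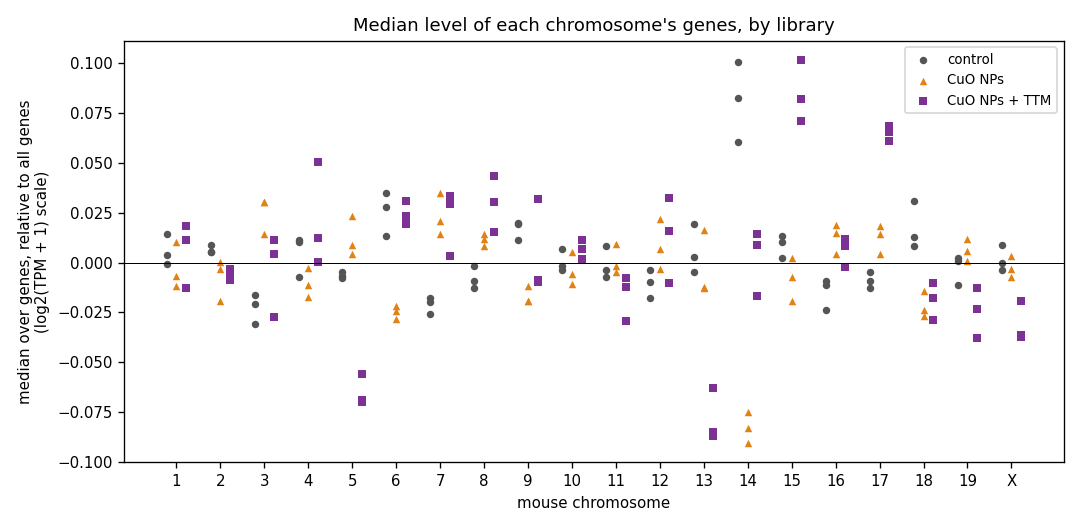
Median over the tested genes of each mouse chromosome of log2(TPM + 1) minus the mean of the 6 control and CuO NPs libraries, less the same median over all genes, with 1 point per library (circles control, triangles CuO NPs, squares CuO NPs + TTM). On chromosome 14 the 3 controls lie at 0.06 to 0.10 and the 3 CuO NPs libraries at -0.09 to -0.08.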

How the data were processed

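Polyadenylated RNA of MH-S cells was sequenced with a stranded kit, per the labels' protocols, and the build GRCm39 and the tools HISAT2, fastp, DESeq2 and RSEM are named, per the submitters' processing notes, with no versions or roles. The authors deposited TPM values per Ensembl gene, with 2 decimals, and every library summed to 1 fixed total, so read depth cannot be known and no counting intervals stand in the text. Whether counting used strand is not stated, so genes overlapping on opposite strands are uncertain. Symbols were matched by identifier for 52073 of the 56980 genes, and 297 tested genes had none.

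A single limma model (version 3.58.1, R 4.3.3, eBayes with an intensity trend, two-sided) was fitted to log2(TPM + 1) of all 9 libraries by group, after the filter of 1 TPM in 3 of the 6 control and CuO NPs libraries. The pseudocount of 1 shrinks fold changes of genes with few TPM. P-values were adjusted by Benjamini-Hochberg over all 12443 genes. The fit was first tested on simulated data. Tables and plots used Python 3.11.15, numpy 2.4.6, pandas 2.3.3 and matplotlib 3.10.9.

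The comparison, its members, the families by symbol pattern, the marker lists and the motifs were chosen with earlier results of these data known. Families were described by counts and medians beside all genes, with no test over a family, and motif shares likewise. Named genes were the 15 largest rises and falls among called genes with at least 5 TPM in a group and a proper symbol, the 10 largest gains and losses of TPM, genes going from below 0.5 to at least 2 TPM or back, up to 3 called members of each family, the 10 most abundant stable genes, the 8 largest rises and falls of transcription factors and 4 reference genes. Genes outside that rule are marked in the text or stand in a count of neighbours, motif holders or markers. Gene order, chromosomes and transcript lengths came from GENCODE M21 and promoters from RefSeq, both of GRCm38, so no GRCm39 coordinate is given. The alternatives were the pseudocount, the filter, 3 scalings, the 6 libraries alone, a replicate block, no intensity trend and leaving out each library. A few named genes and families are not reported here.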

Additional observations from a re-analysis of the deposited data

How the results depend on the processing

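Of 19 alternatives, none turned a call into a call of the opposite direction. With median-of-ratios scaling 2573 genes were called higher and 2575 lower, and with quantile normalization 2667 and 2566, in place of 1519 and 3896, because both centre the typical gene. With median-of-ratios scaling 1519 of the genes called higher in TPM and 2575 of those called lower kept their call. A filter at 5 TPM, which tests fewer genes, left 104 genes at least 2-fold higher in place of 162. A pseudocount of 0.1 gave 236 and 567 genes at least 2-fold higher and lower. Leaving out 1 library gave 1238 to 1539 genes higher, 3102 to 3922 lower, 152 to 169 at least 2-fold higher and 356 to 422 at least 2-fold lower. Of 313 named genes, 288 kept their result in every alternative that tested them. With quantile normalization mt-Atp8 and Fth1 had a log2 fold change of 0, since they held the same top ranks in the libraries. The median of chromosome 14 relative to all genes stayed between -0.19 and -0.16.

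Replicate numbers of control and CuO NPs libraries were not taken to pair the samples. Deviations of same-numbered libraries from their group means correlated at -0.06, 0.00 and -0.08. With 3 libraries per group these values cannot show whether cultures were handled in sets. With the replicate block 1387 genes were called higher, 3585 lower, 162 at least 2-fold higher and 391 at least 2-fold lower.

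TPM holds no depth, so the precision of low genes is unknown. Fold changes of genes with few TPM, of pseudogenes, of near-identical copies and of genes listed at 0 are the least certain.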

Other observations

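The libraries given CuO NPs with 10 µM TTM, which entered no comparison here, stood apart on other chromosomes by the same measure, each library's median over a chromosome's genes relative to the mean of the control and CuO NPs libraries and to all genes. On chromosome 14 they had 0.01, 0.01 and -0.02, between the control and the CuO NPs libraries. On chromosome 15 they lay at 0.07 to 0.10 and on chromosome 17 at 0.06 to 0.07, above all control and CuO NPs libraries. On chromosome 13 they lay at -0.09 to -0.06 and on chromosome 5 at -0.07 to -0.06, below all of them. The cause was not tested.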
